A study of Homo sapiens with 6 samples.

Results

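The CDK inhibitors of the CIP and INK4 families were followed in RD cells, an established embryonal rhabdomyosarcoma (ERMS) line, after knockdown of TAK1, the kinase encoded by MAP3K7. The members are the 6 genes CDKN1A, CDKN1B, CDKN2A, CDKN2B, CDKN2C and CDKN2D, taken by symbol from the 58735 rows of the count table, and all 6 were among the 15935 genes that passed the filter on low counts. All 6 cultures received lentiviral particles. In 3 cultures the particles carried a scrambled shRNA (control) and in 3 cultures a TAK1 shRNA (TAK1 knockdown). Poly(A)-enriched RNA was sequenced from each culture. A single TAK1 shRNA was sequenced, so an effect of TAK1 loss and an effect of that construct cannot be told apart, and the time from transduction to harvest is not given in the sources used here. The labels number the cultures of each group but do not say whether they were transduced separately, so the p-values below measure only the spread between these samples. The comparison asks how the RNA of the genes that hold back the G1 and S phase kinases differed in cells with less TAK1.

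Cyclin-dependent kinases drive a cell through G1 and into S phase by phosphorylating the retinoblastoma protein, which then releases E2F transcription factors. The INK4 proteins p16INK4a, p15INK4b, p18INK4c and p19INK4d bind CDK4 and CDK6 and keep them from D-type cyclins. The CIP proteins p21 and p27 bind cyclin and CDK complexes together, and their best known target is CDK2 with cyclin E or A. In skeletal muscle precursors, p21 and p18INK4c are known to accompany cell cycle exit at terminal differentiation. In many tumors the locus on chromosome 9 that carries both CDKN2A and CDKN2B is lost. Much of the control of p27 acts on the protein through ubiquitin ligases, and RNA counts do not report on it.

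CDKN1A (ENSG00000124762.14), which encodes p21, lies on the plus strand of chromosome 6 from 36676460 to 36687337 in GRCh38. CDKN1B (ENSG00000111276.12), which encodes p27, lies on the plus strand of chromosome 12 from 12685498 to 12722369. CDKN2A (ENSG00000147889.18) and CDKN2B (ENSG00000147883.12) are neighbors on chromosome 9 (minus strand), where they span 21967752 to 21995301 and 22002903 to 22009305. CDKN2A gives rise to p16INK4a and, from another first exon and in another reading frame, to p14ARF, an inhibitor of MDM2, and its single row of counts pools both. CDKN2B encodes p15INK4b. CDKN2C (ENSG00000123080.12; p18INK4c) lies on the plus strand of chromosome 1 from 50960745 to 50974634, and CDKN2D (ENSG00000129355.7; p19INK4d) on chromosome 19 (minus strand) from 10566460 to 10569059. The gene models are those of GENCODE 44.

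The 250 bases upstream of the annotated starts of 4 members are shown because they form the pairs that the results below set against each other, CDKN1A with CDKN1B and CDKN2B with CDKN2A. The sequences are from RefSeq (GRCh38.p14) and run 5′ to 3′ toward each gene, at chr6:36678464-36678713 (plus strand), chr12:12717118-12717367 (plus strand), chr9:22009306-22009555 (minus strand) and, upstream of the p16INK4a transcript, chr9:21974858-21975107 (minus strand). Capitals mark the GC box GGGCGG, the core of the binding sequence of SP1 and related factors, on either strand.
CDKN1A: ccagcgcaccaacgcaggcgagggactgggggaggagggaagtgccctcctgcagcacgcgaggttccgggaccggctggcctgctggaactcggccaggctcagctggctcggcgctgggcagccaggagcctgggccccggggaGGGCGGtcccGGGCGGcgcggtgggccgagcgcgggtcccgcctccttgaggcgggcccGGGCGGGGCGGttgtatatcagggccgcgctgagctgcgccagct
CDKN1B: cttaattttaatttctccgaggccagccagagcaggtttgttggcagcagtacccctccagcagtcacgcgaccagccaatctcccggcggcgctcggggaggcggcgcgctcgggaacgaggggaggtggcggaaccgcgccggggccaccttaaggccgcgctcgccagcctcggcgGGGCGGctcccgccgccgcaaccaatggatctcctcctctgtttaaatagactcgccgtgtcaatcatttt
CDKN2B: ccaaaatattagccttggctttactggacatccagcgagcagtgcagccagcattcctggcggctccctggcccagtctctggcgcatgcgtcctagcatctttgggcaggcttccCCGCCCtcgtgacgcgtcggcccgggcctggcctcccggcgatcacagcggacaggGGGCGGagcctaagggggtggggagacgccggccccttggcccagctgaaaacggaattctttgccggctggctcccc
CDKN2A: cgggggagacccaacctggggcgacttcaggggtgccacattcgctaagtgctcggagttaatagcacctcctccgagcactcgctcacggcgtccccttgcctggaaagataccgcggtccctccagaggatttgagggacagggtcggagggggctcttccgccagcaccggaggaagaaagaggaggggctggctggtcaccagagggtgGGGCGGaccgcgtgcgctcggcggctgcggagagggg
The CDKN1A window held 4 GC boxes, counting 2 that overlap within the last capital stretch. The CDKN2B window held 2, the CDKN1B window 1 and the CDKN2A window 1. At least 1 GC box occurred in 42.6% of the 35116 RefSeq promoter windows of the same length, so its presence alone does not set these genes apart. Of 5 other motifs searched on both strands, the E-box CANNTG was found once in the CDKN1A window and once in the CDKN2B window, and 61.8% of all windows held one. The SMAD box CAGAC (38.0% of all windows), the AP-1 motif TGANTCA (6.57%), the FOXO motif GTAAACA (2.98%) and the E2F motif TTTNNCGC (5.92%) did not occur in these 4 windows. A second CDKN2A window, upstream of another annotated start at chr9:21995325-21995574 (minus strand), is not shown. It held 0 GC boxes and 1 SMAD box. All these matches describe letters only, and the absence of a match says nothing about a factor.

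Total counts per culture ran from 28839898 to 34469323, and single members were covered by 363 to 6461 counts in a culture. MAP3K7 fell from 77.3 ± 0.743 to 31.3 ± 2.00 CPM (the count scaled to the library's size, with the trimmed mean of M-values; mean ± SD, n = 3), a log2 fold change of -1.30. Among markers of the labelled cell type, 14 of 15 genes of the skeletal muscle lineage were expressed and MYF5 was at 0 in every culture, with a summed level of 3206 to 3226 CPM in control and 3342 to 3567 CPM in TAK1 knockdown cultures. CDH1, KRT14 and KRT19 of the epithelial list, CDH5 and KDR of the endothelial list, CD3E of the leukocyte list and ADIPOQ of the adipocyte list were at 0 throughout. Other genes of these lists had counts, with TEK of the endothelial list at a mean of 2.65 CPM and EPCAM of the epithelial list at up to 15 counts. No gene of the neural list was at 0 throughout, and SYP averaged 4.71 CPM. The summed levels in control and in TAK1 knockdown cultures were 2.98 to 3.65 and 1.78 to 2.75 CPM for the endothelial list and 4.99 to 6.64 and 4.57 to 5.57 CPM for the neural list. For the epithelial, leukocyte and adipocyte lists they were under 1 CPM. The part of these transcripts in the results below was not tested. Replicate 1 of the TAK1 knockdown cultures differed from replicates 2 and 3 by 8.67 and 7.90 chi-square units per degree of freedom over all tested genes, against 6.07 between those 2. The control pairs ranged from 2.87 to 4.90. No pair of replicates was a repeat of one library.

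A gene is called higher or lower here when its log2 fold change was at least 0.25 in size and its p, from the quasi-likelihood test of edgeR and adjusted by the Benjamini-Hochberg method across the 15935 genes, was under 0.05. By this rule 3 of the 6 members were lower in TAK1 knockdown cells (CDKN2B, CDKN1A and CDKN2D) and 0 were higher (0 also with DESeq2, with limma voom and at an unadjusted p under 0.05), where 11.3% of all tested genes were called lower, 11.8% higher and 23.1% in either direction. With 6 genes these shares describe the members and test nothing about the families. The log2 fold changes of the members had a median of -0.27, against 0.018 over all tested genes, with 5 members below 0 and 1 above. The CPM of the groups did not overlap for 4 members, all lower in TAK1 knockdown cells, where 22.2% of all tested genes were separated in that direction, 21.6% in the other and 43.9% in either. The 4 included CDKN2C, which passed the p threshold and stayed under the fold threshold. Scaling by library size alone, which called 2376 genes higher and 1404 lower in place of 1879 and 1805, left the same 3 members called. The number of members called lower ran from 2 to 4 when single cultures were left out.

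**Figure D1:**
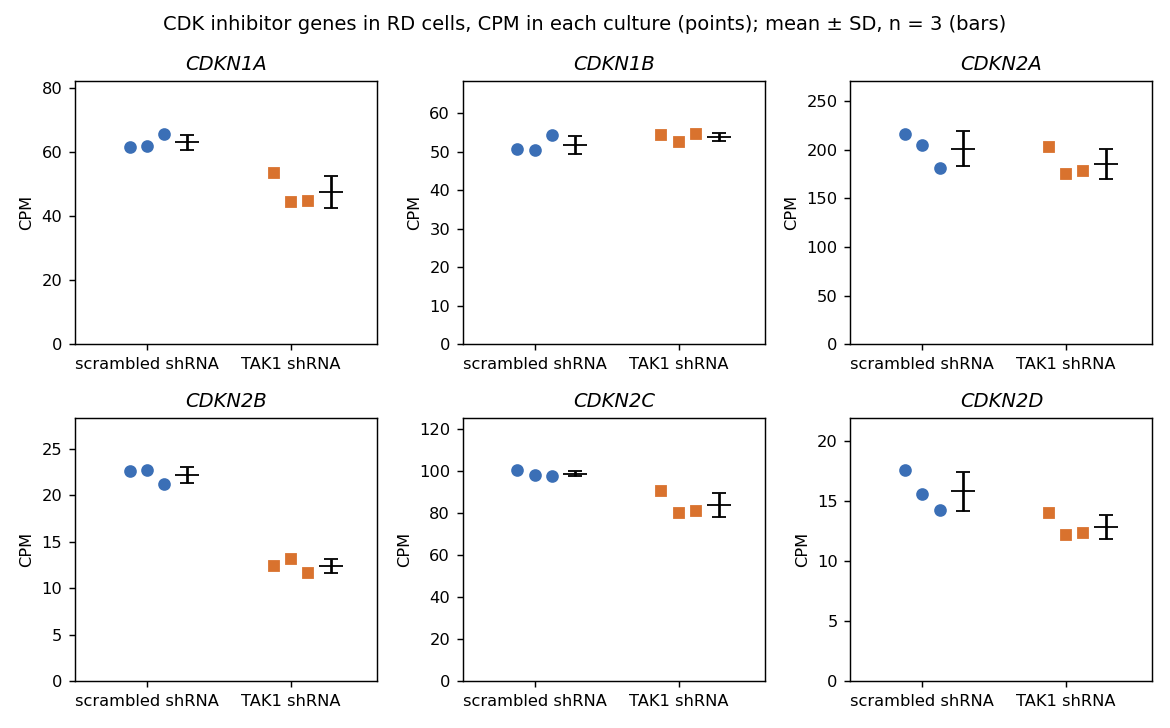
Each panel plots 1 CDK inhibitor gene in CPM on a linear axis from 0, with control cultures as circles, TAK1 knockdown cultures as squares and the mean ± SD (n = 3) as bars. The groups are apart for CDKN1A, CDKN2B, CDKN2C and CDKN2D and overlap for CDKN1B and CDKN2A.

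The CIP pair separated. CDKN1A was lower in TAK1 knockdown cells while CDKN1B was not called. CDKN1A, whose product p21 inhibits CDK2 complexes, was at 61.5, 61.7 and 65.6 CPM in control and at 53.3, 44.4 and 44.6 CPM in TAK1 knockdown cultures. The lowest control culture lay above the highest knockdown culture, and replicate 1 of the knockdown group stood closest to the controls. The mean fell by 24.8% on the fitted scale, from 63.0 ± 2.33 to 47.4 ± 5.09 CPM (SD, n = 3), with a log2 fold change of -0.41 (SE 0.068, adjusted p = 3.42e-05). With single cultures left out the log2 fold change ran from -0.50, without replicate 1 of the knockdown group, to -0.37, and the call held each time. The two-sided exact permutation test gave p = 0.1, the smallest value that 3 against 3 allows. These counts do not report on p21 protein. The study's protein array of rhabdomyosarcoma cells went the other way, with p21 protein reported as increased after TAK1 silencing. Merged over all its transcripts, CDKN1A shares 146 bases (4.87% of its exons) with DINOL on the opposite strand, outside the transcript used here, and strand use in counting is not given in the sources used here.

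CDKN1B, whose product p27 restrains CDK2 complexes in quiescent cells, was at 50.6, 50.4 and 54.4 CPM in control and at 54.3, 52.7 and 54.7 CPM in TAK1 knockdown cultures. The highest control value lay among the knockdown values. Means were 51.8 ± 2.27 and 53.9 ± 1.09 CPM (SD, n = 3) and the log2 fold change was 0.057 (SE 0.059, adjusted p = 0.506), with a 95% interval from -0.065 to 0.18. The interval bounds the difference at these counts, and a change in p27 protein would not be seen here. Within each library, the log2 ratio of CDKN1A to CDKN1B counts was 0.28, 0.29 and 0.27 in control and -0.027, -0.25 and -0.29 in TAK1 knockdown cultures. This ratio does not depend on the scaling of the libraries, and it shifted by -0.47 with no overlap between the groups (two-sided exact permutation p = 0.1, the smallest possible). In the control cultures more reads fell on CDKN1A than on CDKN1B, and in all 3 knockdown cultures the order was turned.

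Among the INK4 genes the decrease was largest for CDKN2B. CDKN2B, whose product p15INK4b inhibits CDK4 and CDK6 and is a classical target of TGF-beta signaling, was at 22.6, 22.7 and 21.2 CPM in control and at 12.4, 13.2 and 11.6 CPM in TAK1 knockdown cultures. All 3 knockdown values lay far below the control range. On the fitted scale the gene fell to 0.560 times its control level, and its mean moved from 22.2 ± 0.855 to 12.4 ± 0.780 CPM (SD, n = 3), with a log2 fold change of -0.84 (SE 0.086, adjusted p = 3.35e-08). Only 1.94% of all tested genes had a lower log2 fold change. It was the member that was still called at an absolute log2 fold change of 0.5, where 4.27% of all tested genes were called lower. Leaving out single cultures moved its value between -0.88 and -0.80.

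CDKN2A, which lies beside CDKN2B on chromosome 9, had the highest counts of the 6 members. It was at 216, 205 and 181 CPM in control and at 203, 175 and 178 CPM in TAK1 knockdown cultures. Replicate 3 of the control group fell within the knockdown range. The means were 201 ± 18.0 and 185 ± 15.3 CPM (SD, n = 3), and the log2 fold change of -0.12 (SE 0.060, adjusted p = 0.146) had a 95% interval from -0.24 to 0.0074. The gene was not called under any alternative, while its adjusted p ran from 0.00977, without replicate 1 of the knockdown group, to 0.541, without replicate 1 of the control group. The log2 ratio of CDKN2A to CDKN2B counts within a library was 3.26, 3.18 and 3.10 in control and 4.03, 3.73 and 3.94 in TAK1 knockdown cultures, a shift of 0.72 with no overlap. The neighbors therefore differed in their change by more than the spread between cultures. The merged exons of CDKN2A share 593 bases (15.3%) with the antisense transcript CDKN2B-AS1, none of them in the p16INK4a transcript used here. CDKN2B-AS1 itself averaged 0.699 ± 0.180 CPM in control and 0.900 ± 0.212 CPM in knockdown cultures (SD, n = 3) and was not called.

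**Figure D2:**
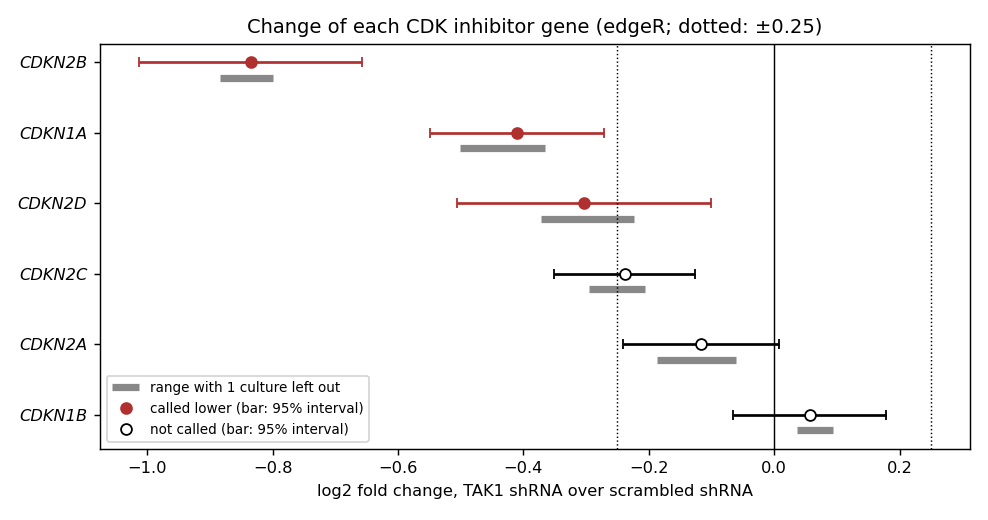
The log2 fold change of each member (TAK1 shRNA over scrambled shRNA, edgeR) is plotted with its 95% interval, called genes as filled points, and the range over fits that leave out 1 culture as a gray bar; dotted lines mark ±0.25. CDKN2B at -0.84 stands apart from the other members, and the bars of CDKN2C and CDKN2D cross the fold threshold.

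CDKN2C, which encodes p18INK4c, was at 100.5, 98.5 and 98.0 CPM in control and at 90.7, 80.2 and 81.0 CPM in TAK1 knockdown cultures. The control cultures were close together and all above the knockdown cultures, of which replicate 1 was again the highest. Means were 99.0 ± 1.32 and 84.0 ± 5.84 CPM (SD, n = 3) and the log2 fold change was -0.24 (SE 0.055, adjusted p = 0.00132). The p threshold was passed, as for 33.3% of all tested genes (17.2% lower and 16.1% higher), but the fold threshold of 0.25 was narrowly missed. Without replicate 1 of the knockdown group the value was -0.30 and CDKN2C was called lower (adjusted p = 3.34e-05). An unnamed gene on the opposite strand (ENSG00000290102) covers 617 bases (20.4%) of the merged exons of CDKN2C and none of the transcript used here.

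CDKN2D, which encodes p19INK4d, had the lowest mean CPM of the members in control, while in TAK1 knockdown cultures CDKN2B was lower. It was at 17.6, 15.6 and 14.3 CPM in control and at 14.0, 12.2 and 12.4 CPM in TAK1 knockdown cultures. The groups were apart by little, with the lowest control culture next to the highest knockdown culture. Means were 15.8 ± 1.65 and 12.8 ± 0.997 CPM (SD, n = 3) and the log2 fold change was -0.30 (SE 0.098, adjusted p = 0.0187). This call rested on single cultures. The adjusted p was 0.131 without replicate 1 of the control group (log2 fold change -0.22), 0.0564 without replicate 2 of the knockdown group (-0.27) and 0.0524 without replicate 3 of that group (-0.29). The log2 ratio of CDKN2C to CDKN2D counts within a library was 2.51, 2.66 and 2.78 in control and 2.70, 2.72 and 2.71 in knockdown cultures. That ratio shifted by 0.061 and overlapped between the groups (two-sided exact permutation p = 0.6). An overlap with so few cultures does not show that the genes moved together.

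The 15 pairs of members were compared by such ratios, which were chosen after the values were known. The groups overlapped for 3 pairs, CDKN2C with CDKN2D, CDKN1A with CDKN2D and CDKN1B with CDKN2A, and were apart for the other 12. These 12 include every pair with CDKN2B, and pairs that share a member are not independent. How often pairs of other genes were apart was not computed, so the 12 have no background. Among single tested genes, the CPM of the groups did not overlap for 43.9% in either direction. The largest shift was that of CDKN1B to CDKN2B, from 1.22 ± 0.119 to 2.12 ± 0.119 log2 units (SD, n = 3), a difference of 0.90. CDKN2B fell against each of the other 5 members, with shifts of -0.54 against CDKN2D and -0.60 against CDKN2C. Each separated pair gave an exact permutation p of 0.1 before adjustment, the smallest that this test allows with 3 against 3.

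**Figure D3:**
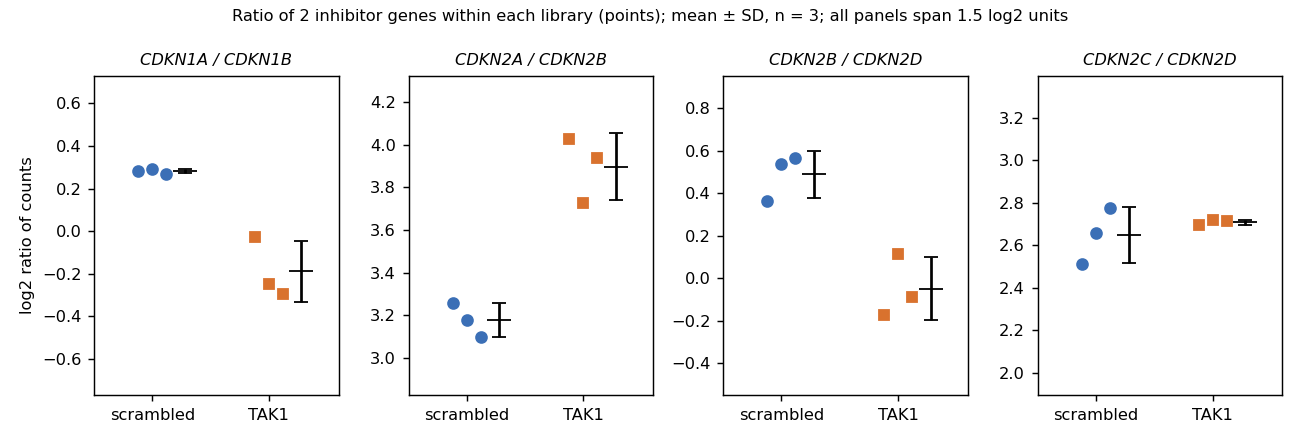
Points show the log2 ratio of the counts of 2 members within each library, by group, with the mean ± SD (n = 3); the panels have different origins and the same span. CDKN1A to CDKN1B and CDKN2B to CDKN2D are lower in TAK1 knockdown cultures, CDKN2A to CDKN2B is higher, and CDKN2C to CDKN2D overlaps.

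Levels were compared between genes as CPM per kilobase of 1 annotated transcript. CDKN2A led with 205 ± 18.4 in control and 189 ± 15.7 in TAK1 knockdown cultures (CPM per kilobase, SD, n = 3). It was followed by CDKN2C (99.5 ± 1.33 and 84.4 ± 5.87), CDKN1A (29.7 ± 1.10 and 22.4 ± 2.41), CDKN1B (21.5 ± 0.941 and 22.4 ± 0.454), CDKN2D (11.1 ± 1.16 and 9.01 ± 0.700) and CDKN2B (5.75 ± 0.222 and 3.22 ± 0.202). Neighbors in this order did not overlap in the control group. In the knockdown group CDKN1A and CDKN1B overlapped. CDKN2A made up 55.0% ± 2.21 of the summed per-kilobase level of the members in control and 57.2% ± 0.432 in knockdown cultures (SD, n = 3), and CDKN2B 1.54% ± 0.0352 and 0.978% ± 0.101. Thus the member with the largest fold change was the least abundant one. These levels depend on the transcript assumed. Over the merged exons of each gene CDKN2A averaged 49.7, CDKN2C 30.3, CDKN1A 18.4, CDKN2D 9.53, CDKN1B 5.71 and CDKN2B 4.32 CPM per kilobase over all 6 cultures, which puts CDKN2D above CDKN1B.

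Among the kinases and cyclins that the inhibitors bind, the called changes were all decreases. Of 15 tested genes of this list, 9 were called lower and 0 higher by edgeR (0 also with DESeq2, with limma voom and at an unadjusted p under 0.05), with a median log2 fold change of -0.33. Over all tested genes 11.3% were called lower and 11.8% higher, which is the background for this list and for those below. Among the partners of the INK4 proteins, CDK4 fell from 167 ± 6.82 to 138 ± 8.67 CPM (log2 fold change -0.27; -0.22 and not called with library size alone, and not called without control replicate 1 or knockdown replicate 2). CDK6 was at -0.18 without a call (-0.26 and called without knockdown replicate 3). The D-type cyclins CCND1 and CCND2, which activate these kinases, fell by 0.93 and 0.77 on the log2 scale, while CCND3 was at -0.13 and not called. Among the partners of the CIP proteins, CDK2 fell by 0.42 on the log2 scale, from 54.3 ± 1.82 to 40.6 ± 1.73 CPM (SD, n = 3), and CCNE2 by 0.71. CCNE1 was at 0.039 and not called.

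Inhibitor and kinase were then set against each other in CPM per kilobase within each library. CDKN1B to CDK2 was 0.890, 0.872 and 0.898 in control and 1.24, 1.26 and 1.20 in TAK1 knockdown cultures, so this ratio was higher in all 3 knockdown cultures although CDKN1B itself was not called. CDKN1A to CDK2 was 1.23 ± 0.0100 in control and 1.24 ± 0.136 in knockdown cultures (SD, n = 3) and overlapped, both genes being lower. The sum of the 4 INK4 genes to the sum of CDK4 and CDK6 was 1.78 ± 0.0625 and 1.85 ± 0.147 and overlapped. Against CDK4 alone the INK4 sum was 3.59 ± 0.0898 in control and 3.85 ± 0.154 in knockdown cultures, and the sum of the CIP genes to CDK2 was 2.11 ± 0.0229 and 2.47 ± 0.151 (SD, n = 3), both higher in knockdown cultures with no overlap. These are ratios of RNA and not of protein. How often ratios of other genes were apart was not computed, so the separated ratios have no background. Among single tested genes, the CPM of the groups did not overlap for 43.9% in either direction. In bulk RNA, fewer cells in a phase of the cycle and less RNA per cell cannot be told apart.

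Of the pocket proteins, E2F factors and DREAM subunits downstream of the kinases, 4 of 20 were called lower and 1 higher (median log2 fold change -0.13). These are 20% and 5%, against 11.3% and 11.8% of all tested genes. RB1, which encodes the retinoblastoma protein, was at -0.13 and not called. E2F8, a repressor E2F expressed in S phase, fell from 35.9 ± 0.729 to 25.1 ± 2.58 CPM (SD, n = 3; log2 fold change -0.52). E2F5, a repressor E2F that works with pocket proteins, rose by 0.36 on the log2 scale.

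Of 22 ubiquitin ligase subunits and kinases that act on p27 and p21 proteins, 6 were called lower and 2 higher (median log2 fold change -0.057). These are 27.3% and 9.09%, against 11.3% and 11.8% of all tested genes. SKP2, the F-box protein that delivers p27 to its ubiquitin ligase, was at 335, 333 and 342 CPM in control and at 196, 206 and 200 CPM in TAK1 knockdown cultures. The groups were far apart, with a log2 fold change of -0.75 (SE 0.044, adjusted p = 1.96e-12). CKS1B, the cofactor of SKP2 for p27, was at -0.22 and not called, being under the fold threshold. UHMK1, a kinase that phosphorylates p27, fell by 0.87 on the log2 scale. MDM2, a ubiquitin ligase that also acts on p21, rose from 39.4 ± 1.07 to 54.8 ± 2.34 CPM (SD, n = 3; log2 fold change 0.47).

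Of 24 transcription regulators of the CIP genes, 5 were called lower and 3 higher (median log2 fold change -0.010). These are 20.8% and 12.5%, against 11.3% and 11.8% of all tested genes, so the upward share was near the background. EGR1, an immediate early factor, fell from 70.6 ± 1.49 to 28.3 ± 2.67 CPM (SD, n = 3; log2 fold change -1.32). FOXO3, an activator of CDKN1B, rose by 0.42 on the log2 scale.

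Of 28 Polycomb subunits and other regulators of the INK4 locus, 6 were called lower and 4 higher (median log2 fold change -0.093), with 2 higher when knockdown replicate 3 was left out. In the full fit these are 21.4% and 14.3%, against 11.3% and 11.8% of all tested genes, so the upward share was near the background. KDM6B, a demethylase that removes the Polycomb mark H3K27me3, rose from 68.8 ± 3.80 to 150 ± 6.95 CPM (SD, n = 3; log2 fold change 1.13). ETS2, an activator of p16INK4a transcription, fell by 0.65 on the log2 scale. Of 8 listed neighbors of CDKN2A and CDKN2B on chromosome 9, CDKN2A-AS1 had no row of counts under that symbol. Among the rest, 4 had enough counts for a test and 0 were called by edgeR, DESeq2 or limma voom. Of these 4, 1 was under an unadjusted and an adjusted p of 0.05. That gene was MTAP, the methylthioadenosine phosphorylase gene beside CDKN2A, at 27.3, 26.2 and 28.6 CPM in control and 21.2, 23.0 and 26.0 CPM in TAK1 knockdown cultures (log2 fold change -0.22, adjusted p = 0.0338). It was called lower without knockdown replicate 3 (-0.32).

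Of 14 tested markers of cell cycle exit and senescence, 6 were called lower and 3 higher (5 higher with library size alone, median log2 fold change -0.13). In the main fit these are 42.9% and 21.4%, against 11.3% and 11.8% of all tested genes. The list mixes genes of proliferating cells with genes of arrest, so these shares give no direction for cell cycle exit. The 6 called lower were SKP2, LMNB1, HMGB1, HMGB2, the proliferation marker MKI67 and CCNG2, a cyclin gene linked to cell cycle arrest (log2 fold change -0.43). GAS2, a growth arrest specific gene, rose by 0.52 on the log2 scale, and IGFBP5 (0.38) and IGFBP3 (0.35) were also called higher. The growth arrest specific genes GAS1 (-0.14) and GAS6 (0.13) were not called. Neither were BTG1 (-0.12), TOB1 (0.20) and GLB1 (0.22).

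**Figure D4:**
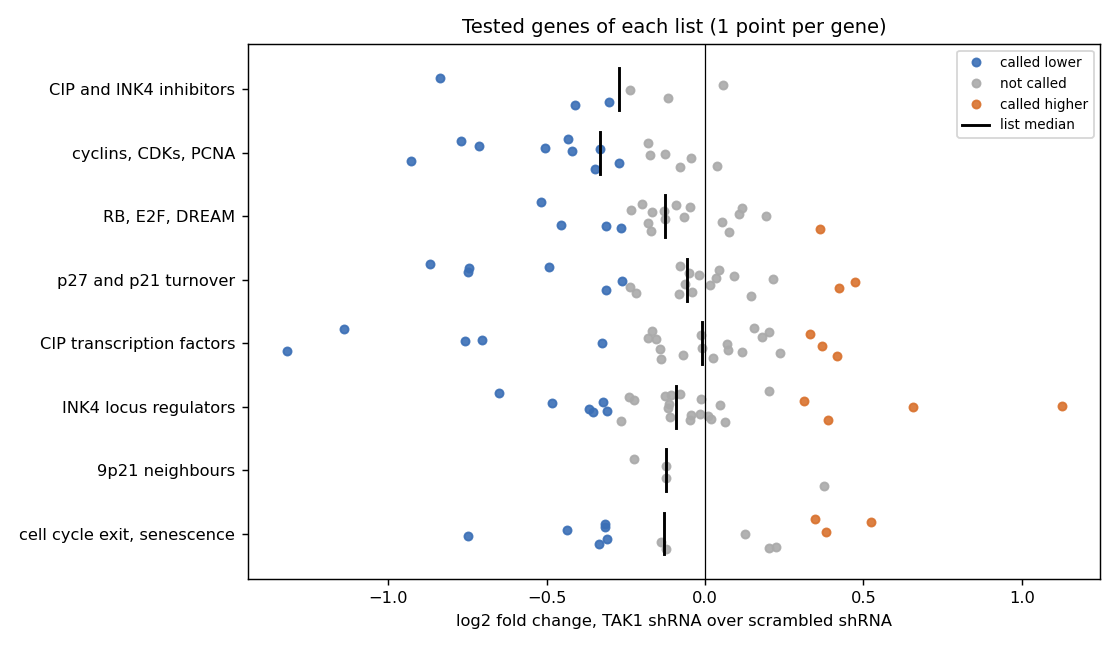
Each point is the log2 fold change of 1 tested gene (TAK1 shRNA over scrambled shRNA), by gene list, with genes called lower, called higher and not called in different colors and the median of each list as a vertical line; height within a list is spread for visibility only. The lists of inhibitors and of their cyclins and kinases have medians of -0.27 and -0.33, and the 2 lists hold no gene called higher.

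The genes whose profile over the 6 cultures was nearest to each member were sought among the 9710 genes that averaged 10 CPM or more, by the root mean square difference of log2 CPM after centering. The nearest to CDKN2B was PLAUR, the urokinase receptor gene, at 37.4, 38.1 and 37.7 CPM in control and 20.6, 21.8 and 20.4 CPM in TAK1 knockdown cultures (difference 0.043), followed by GPR3 and VAV3. CDKN1A was nearest to PAQR4, MEIOC and IGSF8 (0.024 to 0.032), all with replicate 1 highest in the knockdown group. CDKN1B was nearest to PAPOLG, GNE and PAPSS1 (0.017 to 0.020), none of them called. CDKN2A was nearest to MZT2A, RPLP2 and HTRA2 (0.020 to 0.039), CDKN2C to CD276, EBPL and DGCR2 (0.017 to 0.019) and CDKN2D to DUSP2, SNRNP48 and TEDC1 (0.031 to 0.047). No member was among the 3 nearest genes of another. Likeness over 6 cultures of 2 groups is a description, and many genes share such a profile.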

How the data were processed

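RNA of 6 RD cultures (scrambled shRNA, n = 3; TAK1 shRNA, n = 3) was measured by poly(A) RNA-seq. Per the labels and the study's methods, the authors called bases with CASAVA, removed adaptor and low-quality reads, aligned the rest to GRCh38 with STAR and deposited raw counts per gene, without normalization. The counter, the annotation and strand use are not given in the sources used here. Samples were grouped by their titles. Counts were tested with edgeR 4.0.16 in R 4.3.3 (default expression filter, trimmed mean of M-values, quasi-likelihood test, group only, Benjamini-Hochberg adjustment over 15935 genes). Standard errors are the log2 fold change over the square root of F. Exact permutation tests used log2 CPM with a prior count of 2. The common biological coefficient of variation was 5.67%. DESeq2 1.42.0, limma 3.58.1 (voom), other scalings, filters and fold limits, a replicate block and fits without single cultures were alternatives. The tests were checked on simulated data. Rows sharing one of 177 duplicated names were kept apart. Transcript lengths came from GENCODE 44 and promoters from RefSeq. All 6 members had a promoter window. Members, MAP3K7, the highest and lowest called gene of each list with a mean of at least 1 CPM, 14 fixed partners and regulators and the 3 nearest profiles per member were named. Some items are not reported here, and the lists are counted without them. Members and lists were chosen with earlier results of these data known.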

Additional observations from a re-analysis of the deposited data

How the results depend on the processing

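Of 420 values of single genes recomputed under the alternatives, 410 kept their direction and call. CDKN1A and CDKN2B were called lower under each change of test, normalization, filter and left-out culture, CDKN1B and CDKN2A under none, and MAP3K7 stayed between -1.36 and -1.25. With cultures left out in turn, CDKN2D ran from -0.37 to -0.22 and lost its call in 3 of 6 fits, and CDKN2C ran from -0.30 to -0.21 and gained a call in 1. CCNE1, not called, ran from -0.016 to 0.13 and changed sign without control replicate 3. CDK4 lost its call with library size alone (-0.22) and in 2 fits with a culture left out. At a fold threshold of 0.5, 735 genes were higher and 680 lower in place of 1879 and 1805, and 1 member remained called. At that threshold the numbers higher and lower were 0 and 1 for the RB and E2F list, 0 and 3 for the turnover list and 2 and 1 for the INK4 locus list. The exit list then held 1 and 1, with 4 cyclins and kinases lower and 0 CIP regulators higher. Without a fold threshold 2734 genes were lower, and 2 and 9 RB and E2F genes, 4 turnover genes higher, 6 CIP regulators higher, 5 exit genes higher and 1 neighbor on chromosome 9 lower (MTAP) were called. Library size alone raised the upward share of calls from 51.0% to 62.9% and called 5 exit genes higher. Leaving out cultures gave 2 to 5 INK4 locus regulators higher and 0 to 1 neighbors lower. The cause of these shifts was not tested, beyond the thresholds themselves. Deviations of same-numbered control and knockdown cultures correlated at 0.037, 0.036 and 0.016, and those of differently numbered cultures at -0.052 to 0.019. All were small, and whether the numbers mark a weak pairing was not tested. A fit with the replicate block called 1942 genes higher and 1848 lower and changed no call among the members, with CDKN2D at -0.30 and CDKN2A at -0.12. Members had 363 to 6461 counts in a culture, so counting error weighs most on CDKN2B and CDKN2D.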

Other observations

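CDKN1C, which encodes p57, the third CIP protein, is outside the 6 members and was looked up after the values of the others were seen. It was at 21.1, 22.2 and 19.6 CPM in control and at 11.0, 9.80 and 10.1 CPM in TAK1 knockdown cultures. The groups were far apart, with a log2 fold change of -1.03 (SE 0.091, adjusted p = 2.74e-09 in the edgeR fit), and the value stayed between -1.07 and -0.98 over the alternatives. CDKN1B was thus the one CIP gene of 3 without a call.

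In the muscle list, MYOD1, MYOG, CHRNG, MYMK, MYH8 and ACTC1 were called higher in TAK1 knockdown cells and CHRNA1 and MYL4 lower. MYMK, which encodes the fusion protein myomaker, was at 6.51, 6.64 and 7.36 CPM in control and at 14.8, 13.6 and 12.1 CPM in knockdown cultures. CDKN1A was called lower in the same knockdown cultures, and CDKN2C was lower without a call. This is the direction of CHRNA1 and MYL4 and opposite to that of the muscle genes called higher. The part of the muscle genes in the results for CDKN1A and CDKN2C was not tested.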
